A study of Mus musculus with 48 samples.

Results

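Around the serotonin transporter gene Slc6a4, 174 protein-coding genes were described in the hippocampus of mice labelled 5-Htt+/+ or 5-Htt+/-. They are all protein-coding genes of the count table on chromosome 11 of GRCm38 whose start lies between 71000000 and 79500000, a stretch of 8.5 Mb, without Slc6a4 itself and Rpl23a. The table lists 48440 genes, of which 2998 are on chromosome 11 and 22021 are protein-coding. The members are thus defined by position and not by level, but they were chosen with earlier results of these data known. The libraries were compared by genotype label along that position.

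An allele made by targeting a gene in embryonic stem cells stays linked to the DNA beside it when the line is bred onto another strain. Genes near the target can therefore come from the stem cell strain in carriers and from the recipient strain in littermates, and are known as flanking or passenger genes. Mouse strains differ in the sequence of many such genes, and some of these differences are known to alter the level of a transcript. A carrier holds the targeted allele together with the DNA linked to it, so that the allele and the linked DNA cannot be told apart by genotype label. Gene counts carry no strain information, and the origin of the DNA was not tested.

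RNA was sequenced from the hippocampus of 48 female offspring aged 3 months, with the hippocampi of each animal merged. Their sires were 5-Htt+/- mice of the line B6.129(Cg)-Slc6a4tm1Kpl/J, in which the transporter gene is disrupted in all cells and not in 1 cell type, and their dams were C57BL6/J, whereas the labels give C57BL/6 as strain. Dams of prenatally stressed (PS) offspring had been restrained daily from embryonic day 13 to 17, and PS offspring were divided by their sociability into socially affected (SA, labelled susceptible) and socially unaffected (SU, labelled resilient) animals. There were 8 control (C), 8 SA and 8 SU libraries labelled 5-Htt+/+ and 7 C, 8 SA and 9 SU libraries labelled 5-Htt+/-, which makes 24 libraries per genotype label. The C and SU groups labelled 5-Htt+/- thus depart from the equal group sizes that the methods of the study describe. All 6 groups were female, of 1 age and of the same tissue. The litter is not given in the labels, and p-values may be too small where animals shared one.

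Library totals ranged from 16488405 to 38213754 reads. All 6 hippocampal markers were present, with a median of at least 33.4 reads per 1e6 counted reads (CPM) each. Choroid plexus markers were uneven and summed to between 24.7 and 905 CPM, with a mean log2 CPM of these 7 genes above 2 in 10 libraries of each genotype label. Within conditions the labels were less even. In C these were 3 of 8 5-Htt+/+ and 1 of 7 5-Htt+/- libraries, in SA 5 of 8 and 3 of 8, and in SU 2 of 8 and 6 of 9. None of the markers of hippocampus, choroid plexus or thalamus was called between the genotype labels. The 6 libraries lowest on the first principal component were replicate 7 of 5-Htt+/+ C, replicate 5 of 5-Htt+/+ SA, replicates 1, 3 and 7 of 5-Htt+/- C and replicate 8 of 5-Htt+/- SU. The number 6 was set without a formal criterion. Levels below are CPM of the library size after upper quartile scaling, and log2 fold changes are 5-Htt+/- minus 5-Htt+/+ unless stated otherwise.

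The targeted gene was read first. Slc6a4 (chromosome 11, 76998603 to 77032340) ranged from 0 to 0.261 CPM (median 0.123) in the 24 libraries labelled 5-Htt+/+ and from 12.8 to 17.0 CPM (median 14.8) in the 24 labelled 5-Htt+/-. The groups did not overlap, and the higher level stood in the libraries labelled 5-Htt+/-, although that label implies a reduced transporter. At no more than 0.261 CPM the 5-Htt+/+ libraries were near the floor, so that a lower level in 5-Htt+/- libraries could not have been seen. Whole-gene counts do not show which exons were read, and the cause of the higher level was not tested. Every direction below is therefore that of the libraries as labelled.

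The sequences around the RefSeq start sites of the members that carry the results are given first. Each line holds 250 bases before and 50 bases after the start site given by RefSeq for GRCm38.p6, read 5′ to 3′ on the strand of the gene, for the 4 members that passed the test and for Ctns, which shares its upstream stretch with Shpk. Capitals mark a CCAAT box (CCAAT) or a GC box (GGGCGG) on either strand.
Trpv1, chr11:73233899-73234198, + strand: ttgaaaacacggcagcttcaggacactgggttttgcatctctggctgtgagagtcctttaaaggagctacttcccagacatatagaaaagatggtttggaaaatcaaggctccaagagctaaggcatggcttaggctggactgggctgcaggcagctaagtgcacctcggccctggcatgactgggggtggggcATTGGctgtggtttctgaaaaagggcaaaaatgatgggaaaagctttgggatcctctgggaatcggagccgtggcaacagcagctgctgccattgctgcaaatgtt
Shpk, chr11:73199232-73199531, + strand: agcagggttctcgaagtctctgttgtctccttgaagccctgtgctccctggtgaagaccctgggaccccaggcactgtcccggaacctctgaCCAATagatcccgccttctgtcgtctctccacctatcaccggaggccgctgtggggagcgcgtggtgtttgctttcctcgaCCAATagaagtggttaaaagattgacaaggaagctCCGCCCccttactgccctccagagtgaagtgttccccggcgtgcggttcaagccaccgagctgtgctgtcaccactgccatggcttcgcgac
Ctns, chr11:73198993-73199292, - strand: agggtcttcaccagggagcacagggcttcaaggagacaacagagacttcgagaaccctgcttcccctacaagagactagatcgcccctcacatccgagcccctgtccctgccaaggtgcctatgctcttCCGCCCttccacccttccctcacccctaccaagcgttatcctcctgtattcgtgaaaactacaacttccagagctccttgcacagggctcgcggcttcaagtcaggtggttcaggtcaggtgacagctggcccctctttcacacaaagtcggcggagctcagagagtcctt
Xaf1, chr11:72301379-72301678, + strand: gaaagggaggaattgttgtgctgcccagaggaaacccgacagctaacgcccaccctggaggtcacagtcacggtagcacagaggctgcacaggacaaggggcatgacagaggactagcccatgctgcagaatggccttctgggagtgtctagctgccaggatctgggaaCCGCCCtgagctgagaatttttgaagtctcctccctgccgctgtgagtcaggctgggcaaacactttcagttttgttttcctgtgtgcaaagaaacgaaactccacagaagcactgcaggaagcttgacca
Cyb5d2, chr11:72795790-72796089, - strand: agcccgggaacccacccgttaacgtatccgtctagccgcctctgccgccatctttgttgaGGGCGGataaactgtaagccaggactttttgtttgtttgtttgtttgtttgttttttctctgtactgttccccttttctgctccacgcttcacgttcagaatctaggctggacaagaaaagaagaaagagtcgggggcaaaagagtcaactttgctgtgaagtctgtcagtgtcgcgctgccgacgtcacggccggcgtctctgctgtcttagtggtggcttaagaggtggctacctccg

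RefSeq had a promoter entry for 147 of the 174 members. Its start site lay 303 bases from the gene start in the count table for Cyb5d2, 143 for Trpv1, 22 for Shpk and 0 for Xaf1 and Ctns. The Cyb5d2 window thus lies wholly inside the gene as counted, and the Trpv1 window wholly before it. Ctns and Shpk stand head to head, with 417 bases between the genes in the count table, and their 2 windows shared 61 bases. The Shpk window held 2 CCAAT boxes and 1 GC box, the Ctns window 1 GC box, and the Trpv1 window 1 CCAAT box and no GC box. Over all 32851 promoters of RefSeq, 37.4% held a CCAAT box and 35.7% a GC box on either strand. Neither a TATA box (TATAAA, in 13.6% of all promoters) nor the core of an interferon-stimulated response element (GAAA, any 2 bases, GAAA; in 3.44%) was found in any of the 5 windows. Cytosine followed by guanine occurred 18 times in the window of Cyb5d2, 16 in that of Shpk and 10 in that of Ctns. It occurred 6 times in the window of Xaf1 and 4 in that of Trpv1, against a median of 7 over all promoters. These matches describe letters only.

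Of the 174 members, 137 had at least 5 reads in at least 3 libraries and were tested. The other 37 comprised all 30 olfactory receptor genes (Olfr) of the interval and 7 further genes, none with more than 76 reads over all 48 libraries. The olfactory receptors, which detect odorants in the nose, lie 2.63 to 3.64 Mb below Slc6a4 and had 0 to 18 reads each. These genes could not be compared at this depth. Mean levels of the tested members in the 5-Htt+/+ libraries ran from 0.0396 CPM in Aipl1 to 749 CPM in Ssh2, which codes for a phosphatase of the actin regulator cofilin.

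Over all conditions, 4 of the 137 tested members differed between the genotype labels, and all 4 were higher in the libraries labelled 5-Htt+/-: Trpv1, Shpk, Xaf1 and Cyb5d2. Trpv1 was 4.93-fold higher (95% interval 3.88 to 6.26), whereas Xaf1 was 1.34-fold, Shpk 1.26-fold and Cyb5d2 1.12-fold higher. None of the 4 lay next to Slc6a4. They were found 3.74 to 4.68 Mb from it, on the side of lower coordinates, within 0.96 Mb of each other. The test was edgeR's quasi-likelihood F test with Benjamini-Hochberg adjustment over all 31208 genes tested, of which 7 passed at an adjusted p under 0.05 (0.0224%), against 4 members (2.92%). Without the 6 libraries lowest on the first principal component the same 4 members passed, as they did in each of the 48 fits that left out 1 library. These 2 checks were added after seeing the data. Without a filter on low counts Cyb5d2 did not pass in the same test (adjusted p = 0.0533), and some settings added Ctns or Nlrp1a. In whole tissue, a difference in the number of cells that use a gene cannot be told apart from a difference in RNA per cell.

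The other 3 genes that passed were Slc6a4, Gm12343, which is annotated as antisense and lies within Slc6a4 at 77008914 to 77009873, and 1700128E19Rik on chromosome 8. Gm12343 had 0.0142 CPM ± 0.0246 (SD, n = 24) in 5-Htt+/+ and 0.123 CPM ± 0.0627 (SD, n = 24) in 5-Htt+/- libraries, and as the use of strand in counting is not given, its reads cannot be separated from those of Slc6a4. No gene of chromosome 11 outside the interval passed. At an unadjusted p under 0.05, 23 members (16.8%) differed, 12 of them higher and 11 lower, beside 4.49% of all genes tested.

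**Figure D1:**
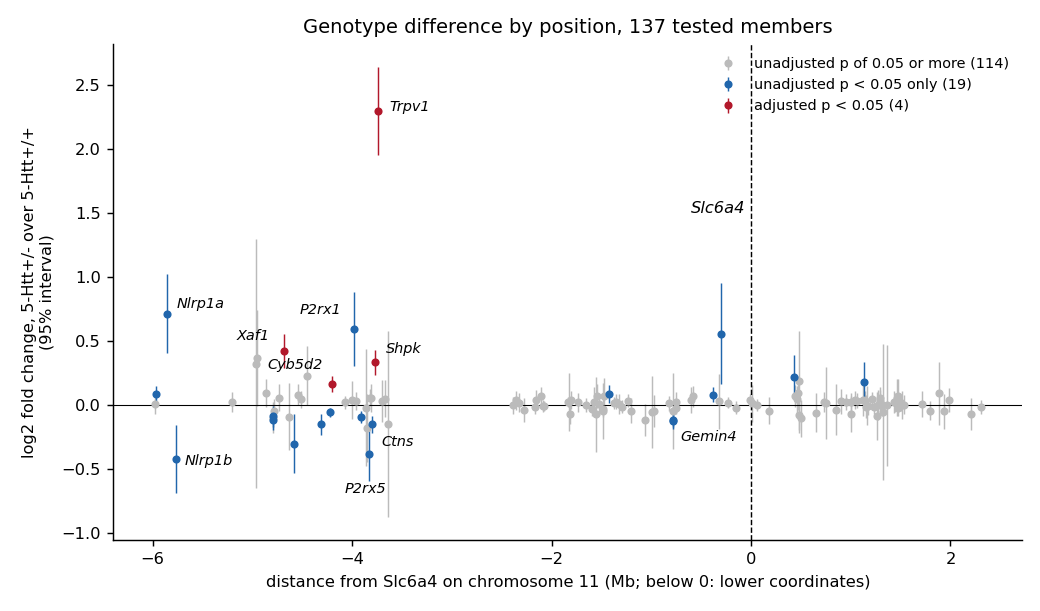
Log2 fold change (y axis, 5-Htt+/- over 5-Htt+/+, with 95% intervals) of the 137 tested members against their distance from Slc6a4 in Mb (x axis). The 4 members with an adjusted p under 0.05 (red) lie 3.74 to 4.68 Mb below Slc6a4, and the 19 with only an unadjusted p under 0.05 (blue) are mostly on the same side.

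Position was then read in classes of distance between each gene and Slc6a4. Within 1 Mb of Slc6a4, 0 of 33 tested members passed the adjusted test and 5 had an unadjusted p under 0.05 (15.2%). From 1 to 2 Mb these counts were 0 and 2 of 55 (3.64%), from 2 to 4 Mb 2 and 6 of 25 (24%), and beyond 4 Mb 2 and 10 of 24 (41.7%). The share was thus near that of all genes (4.49%) from 1 to 2 Mb and above it in the 3 other classes. The 5 within 1 Mb include Gemin4 and Fam57a, which overlap on opposite strands, so that their reads may be shared. The median absolute log2 fold change was 0.04 within 1 Mb, 0.03 from 1 to 2 Mb, 0.05 from 2 to 4 Mb and 0.09 beyond 4 Mb, with median standard errors of 0.05, 0.04, 0.04 and 0.05.

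The sides of Slc6a4 were unlike. Of 85 tested members at lower coordinates, 4 were called and 21 had an unadjusted p under 0.05 (24.7%), whereas at higher coordinates 0 of 52 were called and 2 had one (3.85%). The interval reaches 6.00 Mb below Slc6a4 but only 2.47 Mb above it, so that distance and side are not separate. For comparison, 72 of 1289 protein-coding genes on the rest of chromosome 11 (5.59%) and 679 of 16577 on other chromosomes (4.10%) had an unadjusted p under 0.05, and none of them was called. In the 1 Mb just below the interval it was 5 of 45 genes (11.1%), and in the 1 Mb just above it 0 of 19. At the lower border, Derl2 (0.01, standard error 0.04) and Mis12 (0.08, standard error 0.03) were the first tested members inside, and Dhx33 (0.00, standard error 0.03) was the nearest tested gene outside. These shares are descriptions without a test.

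**Figure D2:**
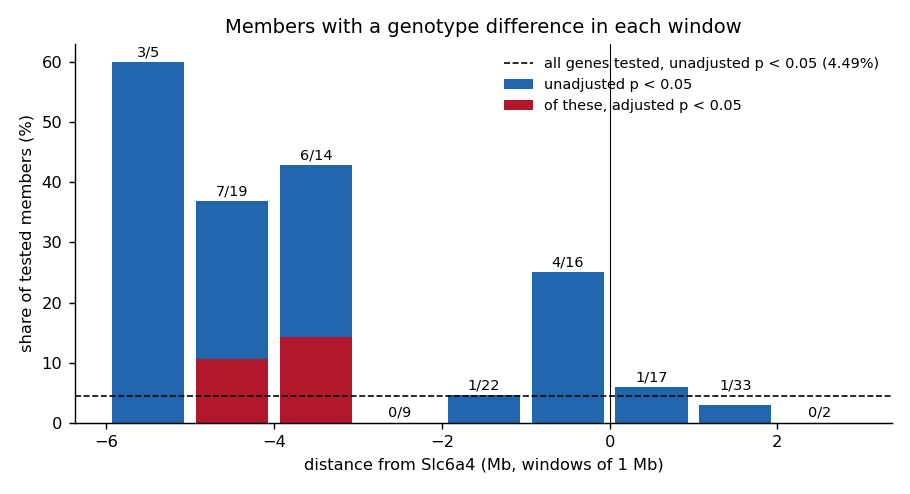
Share of tested members (y axis, %) with an unadjusted p under 0.05 (blue) and, of these, with an adjusted p under 0.05 (red) in windows of 1 Mb from Slc6a4 (x axis), with counts above the bars. The 3 windows farthest below Slc6a4 hold 3 of 5, 7 of 19 and 6 of 14 members, against 4.49% of all genes (dashed line).

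The members next to Slc6a4 showed small differences. On the lower side these were Blmh, a cysteine protease 0.0112 Mb away, Cpd, a carboxypeptidase of the secretory pathway, and Gosr1, a SNARE protein of the Golgi apparatus. On the higher side they were Nsrp1, a splicing regulator 0.0120 Mb away, Efcab5, an EF-hand protein, and Ssh2. Their log2 fold changes were 0.04 for Blmh (95% interval -0.01 to 0.09), -0.02 for Cpd (-0.07 to 0.03) and 0.02 for Gosr1 (-0.03 to 0.06). On the other side they were 0.01 for Nsrp1 (-0.13 to 0.16), 0.00 for Efcab5 (-0.05 to 0.05) and -0.04 for Ssh2 (-0.15 to 0.06). None of the 6 passed, and each interval included 0. Over all tested members, 109 of 137 had a 95% interval that lay within 0.25 of 0 on the log2 scale.

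From Xaf1 to Trpv1, a stretch named after the calls were seen, 22 members were tested. Of these 4 were called (18.2%, beside 0.0224% of all genes) and 11 had an unadjusted p under 0.05 (50%, beside 4.49%). The 11 included members on both sides of 0. The stretch begins and ends with a called gene, so that these shares follow in part from how it was chosen. Between the called genes stood members with small values, such as Zzef1 (0.02, standard error 0.03), which lies head to head with Cyb5d2, and Camkk1 (0.03, standard error 0.04), a kinase that activates calmodulin-dependent kinases. These 2 were chosen after their values were seen. Genes with a difference were thus interspersed with genes without a detectable one.

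**Figure D3:**
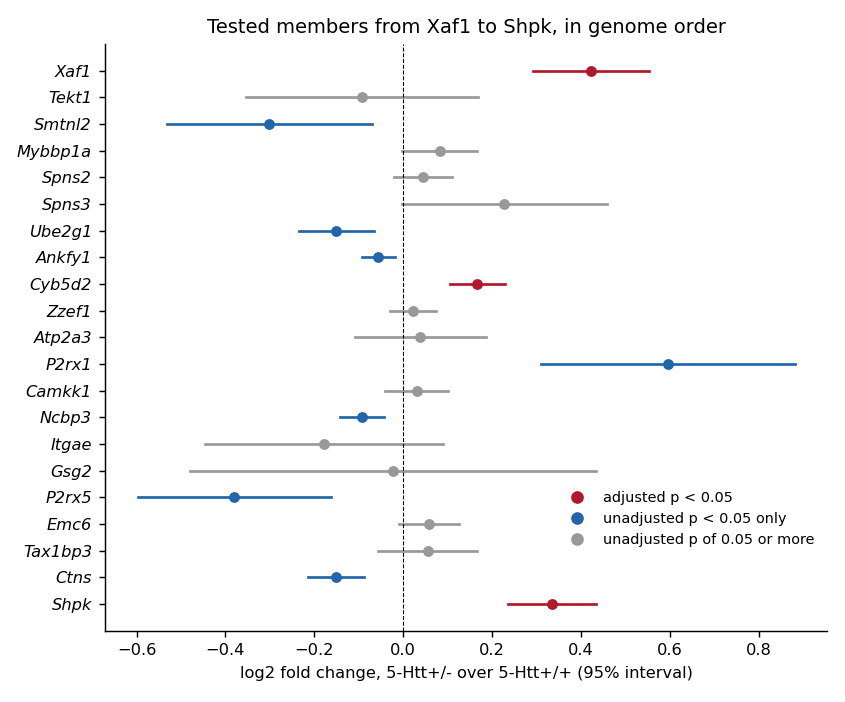
Log2 fold change with its 95% interval (x axis, 5-Htt+/- over 5-Htt+/+) of the tested members from Xaf1 to Shpk in genome order (y axis). Xaf1, Cyb5d2 and Shpk (red) passed the adjusted test, and Trpv1, next after Shpk with 2.30, is left out for scale.

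Trpv1 codes for the cation channel opened by heat, acid and capsaicin and is best known from sensory neurons (chromosome 11, 73234292 to 73261242, + strand). In C, the lowest, median and highest library had 0.0760, 0.246 and 0.394 CPM in 5-Htt+/+ and 0.844, 1.11 and 1.66 CPM in 5-Htt+/-. In SA, they had 0.0425, 0.0880 and 0.323 CPM in 5-Htt+/+ and 0.699, 1.13 and 1.51 CPM in 5-Htt+/-. In SU, they had 0.0484, 0.332 and 0.839 CPM in 5-Htt+/+ and 0.864, 1.12 and 1.33 CPM in 5-Htt+/-. The genotype labels did not overlap within any of the conditions. The only crossing over all 48 libraries came from replicate 2 of 5-Htt+/+ SU, at 0.839 CPM with 29 reads, above the 2 lowest 5-Htt+/- libraries.

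The log2 fold change of Trpv1 was 2.30 (standard error 0.17, adjusted p = 1.07e-13), and the 5-Htt+/- library was higher in 99.7% of the 576 pairs of a 5-Htt+/- and a 5-Htt+/+ library. Only 6 of all tested genes (0.0192%) had the 5-Htt+/- library higher in at least 90% or at most 10% of pairs, and 3 of them were Trpv1, Shpk and Xaf1. Counts behind Trpv1 were low, with 1 to 29 reads per 5-Htt+/+ library and 15 to 42 per 5-Htt+/- library. It passed the filter on low counts in both genotypes, since 13 of 24 5-Htt+/+ and 24 of 24 5-Htt+/- libraries had at least 5 reads. Per kb of exon, Trpv1 had 0.0630 CPM in 5-Htt+/+ and 0.306 CPM in 5-Htt+/- libraries, which was below Ctns (4.80 and 4.31), Cyb5d2 (2.11 and 2.37), Shpk (1.44 and 1.81) and Xaf1 (1.03 and 1.40) in both.

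**Figure D4:**
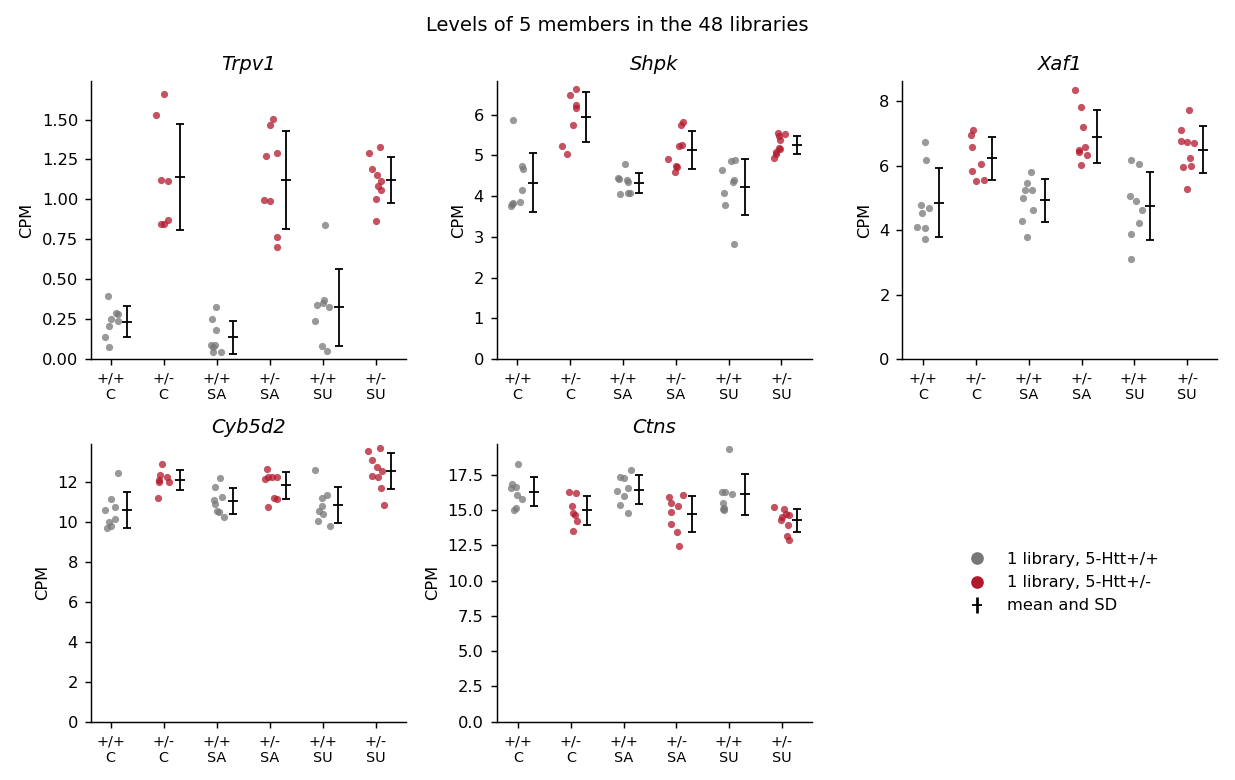
CPM of Trpv1, Shpk, Xaf1, Cyb5d2 and Ctns (y axes, from 0) in each of the 48 libraries by genotype label and condition (x axes), with mean and SD. Trpv1 does not overlap between the labels within any condition (highest 0.394, 0.323 and 0.839 CPM in 5-Htt+/+ against lowest 0.844, 0.699 and 0.864 CPM in 5-Htt+/-), whereas Cyb5d2 and Ctns overlap in all 3.

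Shpk codes for sedoheptulokinase, which feeds a sugar into the pentose phosphate pathway (73199460 to 73224511, + strand), and ends 9780 bases before Trpv1. In C, the lowest, median and highest library had 3.76, 4.0 and 5.86 CPM in 5-Htt+/+ and 5.04, 6.17 and 6.64 CPM in 5-Htt+/-. In SA, they had 4.05, 4.37 and 4.80 CPM in 5-Htt+/+ and 4.6, 5.07 and 5.82 CPM in 5-Htt+/-. In SU, they had 2.82, 4.38 and 4.88 CPM in 5-Htt+/+ and 4.94, 5.18 and 5.54 CPM in 5-Htt+/-. The groups were apart in SU and overlapped in C and SA. In C the overlap came from replicate 7 of 5-Htt+/+, one of the 6 libraries lowest on the first principal component, and the next 5-Htt+/+ library had 4.73 CPM. The log2 fold change was 0.33 (standard error 0.05, adjusted p = 8.90e-05), with 5-Htt+/- higher in 94.3% of pairs.

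Xaf1 codes for an interferon-induced protein that binds the caspase inhibitor XIAP (72301629 to 72313733, + strand). In C, the lowest, median and highest library had 3.73, 4.61 and 6.73 CPM in 5-Htt+/+ and 5.52, 6.05 and 7.11 CPM in 5-Htt+/-. In SA, they had 3.79, 5.12 and 5.81 CPM in 5-Htt+/+ and 6.03, 6.52 and 8.36 CPM in 5-Htt+/-. In SU, they had 3.09, 4.75 and 6.16 CPM in 5-Htt+/+ and 5.27, 6.72 and 7.73 CPM in 5-Htt+/-. The groups were apart in SA and overlapped in C and SU. The log2 fold change was 0.42 (standard error 0.06, adjusted p = 0.000221), with 5-Htt+/- higher in 92.5% of pairs.

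Cyb5d2 codes for neuferricin, a haem-binding protein with a cytochrome b5 domain (72777232 to 72796142, - strand). In C, the lowest, median and highest library had 9.71, 10.4 and 12.5 CPM in 5-Htt+/+ and 11.2, 12.1 and 12.9 CPM in 5-Htt+/-. In SA, they had 10.2, 11.0 and 12.2 CPM in 5-Htt+/+ and 10.8, 12.2 and 12.6 CPM in 5-Htt+/-. In SU, they had 9.81, 10.7 and 12.6 CPM in 5-Htt+/+ and 10.8, 12.6 and 13.7 CPM in 5-Htt+/-. The groups overlapped in every condition, and the medians were higher in 5-Htt+/- in all 3. The log2 fold change was 0.17 (standard error 0.03, adjusted p = 0.0107), with 5-Htt+/- higher in 87.2% of pairs. Without a filter on low counts the adjusted p was 0.0533.

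Ctns codes for cystinosin, which carries cystine out of the lysosome (73183596 to 73199042, - strand), and did not pass. In C, the lowest, median and highest library had 15, 16.3 and 18.3 CPM in 5-Htt+/+ and 13.5, 14.8 and 16.3 CPM in 5-Htt+/-. In SA, they had 14.8, 16.5 and 17.8 CPM in 5-Htt+/+ and 12.4, 15.1 and 16.1 CPM in 5-Htt+/-. In SU, they had 15, 15.8 and 19.4 CPM in 5-Htt+/+ and 12.9, 14.5 and 15.2 CPM in 5-Htt+/-. The medians were lower in 5-Htt+/- in every condition, opposite to its neighbour Shpk, and the groups overlapped in all 3. The log2 fold change was -0.15 (standard error 0.03, 95% interval -0.21 to -0.09, adjusted p = 0.0590), and the adjusted p ran from 0.0156 to 0.346 over the 10 alternative analyses.

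The 5 genes above overlap no other gene of the count table, whereas 61 of the 174 members do. The 3 conditions share no libraries, so that the genotype difference could be read in each of them separately. Trpv1 was called in all 3, Shpk in C, and no other member was called in any of them. In C, 4 of all genes tested passed (0.0128%) and 2 of 137 members, whereas in SA and in SU 3 of all genes passed (0.00961%) and 1 member. At an unadjusted p under 0.05, 18 members (13.1%) differed in C beside 7.61% of all genes, 20 (14.6%) in SA beside 2.9%, and 11 (8.03%) in SU beside 3.39%.

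Trpv1 was 4.72-fold higher in C (95% interval 3.13 to 7.11, adjusted p = 1.39e-05), 7.96-fold higher in SA (5.07 to 12.5, adjusted p = 4.44e-08) and 3.19-fold higher in SU (2.19 to 4.64, adjusted p = 0.00151). In a fit of only the SU libraries the adjusted p was 0.0847. Shpk was 1.37-fold higher in C (95% interval 1.21 to 1.54, adjusted p = 0.0316), a call that was lost in 4 alternatives (adjusted p 0.0633 to 0.894). In SA and SU, Shpk had folds of 1.19 (1.05 to 1.33) and 1.24 (1.10 to 1.39) that did not pass. Xaf1 had folds of 1.27 in C, 1.40 in SA and 1.35 in SU, and Ctns had 0.920, 0.895 and 0.887. Cyb5d2 had 1.14, 1.07 and 1.15, and its interval included 1 in SA only (0.994 to 1.16).

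An unadjusted p under 0.05 with the same direction in C, SA and SU was found for 8 of all genes tested (0.0256%) and for 4 members, namely Trpv1, Shpk, Xaf1 and Ctns. Across the 137 members, the log2 fold changes had a Spearman correlation of 0.26 between C and SA, 0.26 between C and SU and 0.21 between SA and SU. Across all 31208 genes these were -0.03, 0.06 and -0.05. Members are not independent replicates, since all are read from the same libraries.

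**Figure D5:**
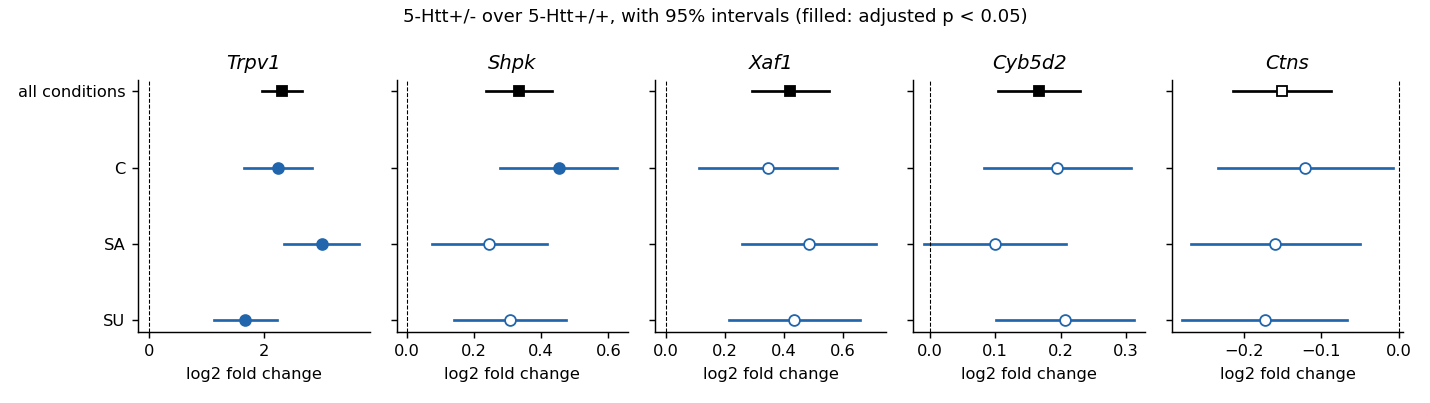
Log2 fold change with its 95% interval (x axes, 5-Htt+/- over 5-Htt+/+) of 5 members over all conditions (black) and in C, SA and SU (blue), with filled symbols where the adjusted p was under 0.05. The intervals exclude 0 throughout, except for Cyb5d2 in SA.

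Whether the genotype difference itself changed with prenatal stress was tested as an interaction. No member and none of the 31208 genes passed with edgeR (0%), with 4 members (2.92%) and 5.32% of all genes at an unadjusted p under 0.05, and DESeq2 called no member either. The interaction of Trpv1 was 0.10 (95% interval -0.64 to 0.83), that of Xaf1 0.11 (-0.17 to 0.39) and that of Shpk -0.18 (-0.39 to 0.03). Those of Cyb5d2 and Ctns were -0.04 (-0.18 to 0.09) and -0.05 (-0.18 to 0.09). For Trpv1 changes of the genotype difference above 0.83 or below -0.64 log2 units lay outside the interval, and changes between these limits lay within it. The interaction averages SA and SU, where the genotype log2 fold changes of Trpv1 were 2.99 and 1.67. A gap between SA and SU therefore does not enter it.

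Prenatal stress over both genotypes, SA against SU and the three-way contrast of genotype, stress and sociability called no member with edgeR. For prenatal stress 12 of all genes passed (0.0385%), and 22 members (16.1%) beside 12.3% of all genes had an unadjusted p under 0.05. For SA against SU no gene passed (0%), and these shares were 6.57% for members (9 of 137) and 3.48% for all genes. For the three-way contrast no gene passed (0%), and they were 5.84% (8 of 137) and 3.38%. DESeq2 called no member in these contrasts, and 1 gene in all for SA against SU. Trpv1 had an unadjusted p of 0.00536 for SA minus SU (log2 fold change -0.65, standard error 0.22) and of 0.00446 in the three-way contrast, and neither passed. The three-way value was -1.32 (standard error 0.44), coded as SA minus SU in 5-Htt+/+ less SA minus SU in 5-Htt+/- libraries. Both values include replicate 2 of 5-Htt+/+ SU.

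The members were also grouped by role, with lists made by function but with earlier results of these data known. All calls in the lists are those of Trpv1, Xaf1, Shpk and Cyb5d2, which lie within 0.96 Mb, so that the lists restate these calls. They stand beside 4 of 137 tested members (2.92%) and 0.0224% of all genes tested. Among 11 ion channels and transporters, all tested, 1 was called higher (Trpv1), none lower and 10 did not pass. Their median log2 fold change was 0.04, beside 0.02 over all tested members and 0.00 over all genes. P2rx1 and P2rx5 code for channels opened by extracellular ATP, both within the stretch from Xaf1 to Trpv1. P2rx1 had 0.390 CPM ± 0.159 (SD, n = 24) in 5-Htt+/+ and 0.581 CPM ± 0.179 in 5-Htt+/-, with a log2 fold change of 0.60 (standard error 0.14, adjusted p = 0.234). P2rx5, named after its value was seen, had -0.38 (standard error 0.11, adjusted p = 0.827), so that the 2 channels had opposite signs and neither passed.

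Among 11 genes of innate immunity and cell death, 1 was called higher (Xaf1), none lower and 10 did not pass, with a median of 0.03. Of all genes tested, 0.0224% were called. Nlrp1a and Nlrp1b code for inflammasome sensors and lie 5.85 and 5.77 Mb below Slc6a4. Nlrp1a had 0.310 CPM ± 0.129 (SD, n = 24) in 5-Htt+/+ and 0.531 CPM ± 0.155 in 5-Htt+/- (0.71, standard error 0.15, adjusted p = 0.102). Nlrp1b had 0.789 CPM ± 0.237 in 5-Htt+/+ and 0.582 CPM ± 0.194 in 5-Htt+/- (-0.42, standard error 0.13, adjusted p = 0.956).

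In SA, both Nlrp1a and Nlrp1b were apart between the genotype labels, as were Trpv1 and Xaf1, which makes 4 of 137 members beside 0.0288% of all genes. In C only Trpv1 was apart (0.0352% of all genes), and in SU Trpv1 and Shpk were (0.0192% of all genes), whereas over all 48 libraries no member was (0.0032% of all genes). The Nlrp1 genes are closely related copies, and reads can be split between them in ways that depend on counting. The neighbouring pseudogene Nlrp1c-ps, which is no member, had 0.422 CPM ± 0.154 in 5-Htt+/+ and 0.242 CPM ± 0.115 in 5-Htt+/- (-0.80, standard error 0.18, adjusted p = 0.174). Summed, the 3 copies had 1.52 CPM ± 0.325 (SD, n = 24) in 5-Htt+/+ and 1.36 CPM ± 0.340 (SD, n = 24) in 5-Htt+/-, with overlapping ranges of 0.881 to 1.98 and 0.717 to 2.30 CPM. How reads were divided between the copies was not tested, and the values of the single copies are uncertain.

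Among 13 tested metabolic enzymes and redox proteins, of 14 in the interval, 2 were called higher (Shpk and Cyb5d2), none lower and 11 did not pass, with a median of 0.04. Both lie in the stretch from Xaf1 to Trpv1, and 0.0224% of all genes tested were called. Txndc17, a thioredoxin-like protein, had -0.09 (standard error 0.04, adjusted p = 0.956). No member of the 4 further lists with tested genes was called. Their medians were 0.01 for 20 genes of neuronal signalling and neurite growth, 0.00 for 16 genes of RNA processing and translation, 0.01 for 15 genes of membrane trafficking and 0.04 for 6 genes of mitosis and DNA replication.

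In neuronal signalling 11 of 20 log2 fold changes were above 0. Abr had 538 CPM ± 39.1 (SD, n = 24) in 5-Htt+/+ and 569 CPM ± 41.0 in 5-Htt+/- (0.08, standard error 0.03, adjusted p = 0.956). Coro6, an actin-binding coronin, had 0.22 (standard error 0.09), and Rph3al, a Rab effector in exocytosis, had -0.12 (standard error 0.06), both with an adjusted p of 0.956. The ranges of both labels overlapped for all 3 genes.

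In RNA processing and translation 8 of 16 values were above 0. Gemin4, a component of the SMN complex that assembles spliceosomal particles, lies 0.781 Mb below Slc6a4 and had 18.5 CPM ± 1.14 (SD, n = 24) in 5-Htt+/+ and 17.0 CPM ± 1.18 in 5-Htt+/- (-0.13, standard error 0.03, adjusted p = 0.141). It overlaps Glod4 on the same strand and Fam57a on the opposite strand, so that reads may be shared. Fam57a, named after its value was seen, had -0.12 (standard error 0.03, adjusted p = 0.196). Ncbp3, a cap-binding protein, had -0.09 (standard error 0.02, adjusted p = 0.605), and Mybbp1a, a nucleolar protein, had 0.08 (standard error 0.04, adjusted p = 0.956).

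In membrane trafficking 10 of 15 values were above 0. Ankfy1, an endosomal effector of Rab5, had -0.06 (standard error 0.02), and Sgsm2, a GTPase-activating protein for Rab proteins, had 0.07 (standard error 0.04). Emc6, of the membrane protein complex of the endoplasmic reticulum, had 0.06 (standard error 0.03). Of the mitosis genes, Mis12, a kinetochore protein, had 0.08 (standard error 0.03), Nek8, a kinase of the cilium, 0.18 (standard error 0.08) and Fam64a, a regulator of mitosis, 0.37 (standard error 0.19). All 6 had an adjusted p of 0.956. The 45 tested members in no list had no call and a median of 0.01.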

How the data were processed

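RNA of 48 hippocampi was sequenced, and each library was taken as 1 animal. As deposited by the authors, the table holds raw counts (whole reads per gene, neither scaled nor filtered) for 48440 genes. STAR, HTSeq, DESeq2 and the build GRCm38.p5 are named in the processing notes of the submitters, while the paper describes Salmon estimates. The sources used here give neither versions nor the strand setting. Groups came from the library labels.

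Members were all protein-coding genes that start between 71000000 and 79500000 on chromosome 11, without Slc6a4 and Rpl23a. Members and gene lists were chosen with earlier results of these data known. Exon lengths came from the GENCODE M21 annotation, which has the same build, and matched all members by gene ID.

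The analysis was run in R 4.3.3 using edgeR 4.0.16. A gene entered the tests with 5 or more reads in 3 or more libraries. Libraries were scaled by upper quartile and fitted with a mean for each of 6 groups and the quasi-likelihood method. P-values were adjusted over all 31208 genes tested by Benjamini-Hochberg, and an adjusted p under 0.05 was called. Genotype over all conditions is the mean of the differences in C, SA and SU, and the interaction is the mean difference in SA and SU minus that in C. Intervals of 95% use the prior and residual degrees of freedom of the fit. The fit was tested on simulated data before use. Library totals of 16488405 to 38213754 reads limit the precision of genes at low levels, where 1 read is a large share.

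The genes named were Slc6a4, the 5 genes Trpv1, Shpk, Xaf1, Cyb5d2 and Ctns, up to 20 called members, the 3 tested members nearest to Slc6a4 on each side, the 3 (or fewer) members of smallest p in each list, and members called in other contrasts. A chi-square comparison of the counts of libraries of 1 group (169 pairs, smallest value per gene 2.75) found no library deposited more than once. Alternatives were edgeR's likelihood ratio test, DESeq2 1.42.0, scaling by TMM or relative log expression, omission of the filter, a stricter filter (10 reads in 24 libraries), a replicate block, a choroid plexus score or the first principal component as a term, and, within conditions, a fit of only the groups compared. Leaving out the 6 libraries lowest on the first principal component, and each library in turn, was added after seeing the data. Promoter windows were read from RefSeq tables of GRCm38.p6 and searched for 4 motifs on both strands.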

Additional observations from a re-analysis of the deposited data

Results flagged for a closer look

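A library farther from its group than Dixon's criterion allows was found in 14 of 168 combinations of a named gene and a group, and chance gives about 1 in 20. For Trpv1 it was replicate 2 of 5-Htt+/+ SU, at 0.839 CPM beside 0.367 CPM in the next library. Without this library the log2 fold change of Trpv1 over all conditions was 2.45.

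Replicate 7 of 5-Htt+/+ C, one of the 6 libraries lowest on the first principal component, was marked for 4 genes. It was highest in Shpk (5.86 CPM) and Blmh (45.4 CPM) and lowest in Nsrp1 (7.11 CPM) and Ssh2 (463 CPM). Without it Shpk had a log2 fold change of 0.36 and Cyb5d2 one of 0.18. Replicate 5 of 5-Htt+/+ SA, of the same 6, was lowest in Nsrp1 (9.28 CPM) and Mis12 (16.9 CPM).

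In 5-Htt+/+ SU, replicate 1 was highest in Ctns (19.4 CPM), replicate 4 was highest in Cpd (124 CPM) and lowest in Nsrp1 (10.02 CPM), and replicate 5 was lowest in Abr (478 CPM). Replicate 5 of 5-Htt+/+ C was lowest in Gemin4 (15.7 CPM). Of the libraries labelled 5-Htt+/-, replicate 7 of SA was lowest in Ankfy1 (55.3 CPM) and replicate 6 of SU was lowest in Sgsm2 (80.1 CPM).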

How the results depend on the processing

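Over all conditions, 4 to 6 members passed under the 10 alternatives, beside 4 in the main analysis. Trpv1, Shpk and Xaf1 passed under each of them, and Cyb5d2 under all but the fit without a filter (adjusted p = 0.0533). Ctns passed in addition under 5 (likelihood ratio test, DESeq2, no filter, replicate block and first principal component), and Nlrp1a under the likelihood ratio test and DESeq2. With 1 library left out, 4 to 7 members passed, 7 of them without replicate 5 of 5-Htt+/+ C, where Ctns, Nlrp1a and Gemin4 were added. Over all genes, the likelihood ratio test called 11 and the main analysis 7. In C, 1 member passed instead of 2 without a filter, with the first principal component as a term and in the fit of 2 groups, as Shpk was lost. The same held without the 6 libraries lowest on that component. In SU, 0 members passed in the fit of 2 groups, as Trpv1 was lost, and 1 member instead of 2 was apart on CPM of the total count. The cause was not tested. Efcab5 changed sign from 0.0010 to -0.0050 without a filter and to -0.0020 with the first principal component. Nlrp1a and Fam64a did not pass the stricter filter. Replicate numbers shared between groups did not pair libraries: 115 pairs with the same number had a mean correlation of 0.0044, 844 other pairs -0.00060, and 8 of 48 libraries correlated best with their own number. With a replicate block 5 members passed over all conditions, and in the other contrasts 2 in C, 1 in SA, 1 in SU and 0 elsewhere, as without it. Classes of distance from gene starts held the same numbers of called members. Genes at the level of Trpv1 rest on 1 to 42 reads per library.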

Other observations

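Of the 128 other rows of the interval, such as pseudogenes and non-coding RNAs, 73 were tested, 1 was called (Gm12343, within Slc6a4) and 10 (13.7%) had an unadjusted p under 0.05, beside 4.49% of all genes. After Gm12343 the smallest p-values were those of Nlrp1c-ps and 4732414G09Rik, a non-coding RNA 3.98 Mb below Slc6a4. The latter had 0.359 CPM ± 0.127 (SD, n = 24) in 5-Htt+/+ and 0.520 CPM ± 0.152 (SD, n = 24) in 5-Htt+/- libraries, with a log2 fold change of 0.50 (standard error 0.14, adjusted p = 0.827 with edgeR).

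4732414G09Rik lies next to P2rx1, the ATP-gated channel described above, and both were higher on average in the libraries labelled 5-Htt+/- without passing the test. Ube2g1, a ubiquitin-conjugating enzyme, and Smtnl2, a smooth muscle protein relative, both from the stretch between Xaf1 and Trpv1 and named after their values were seen, had log2 fold changes of -0.15 (standard error 0.04, adjusted p = 0.688 with edgeR) and -0.30 (standard error 0.11, adjusted p = 0.956). Tusc5, 0.300 Mb below Slc6a4, had 0.56 (standard error 0.20, adjusted p = 0.956) at 0.193 CPM in 5-Htt+/+ and 0.280 CPM in 5-Htt+/- libraries.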
